A study of Mus musculus with 4 samples.

Results

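The bitter taste receptor genes were taken as every protein-coding gene of the mm9 annotation whose symbol begins with Tas2r, which gave 35 of 22367 protein-coding genes. Their position relative to the nuclear envelope (NE) was read from DamID in primary hepatocytes, the parenchymal cells of the liver, from WT and Tm7sf2-/- (KO) mice. The KO mice lack Tm7sf2, also called NET47, a sterol reductase of the endoplasmic reticulum with a pool in the NE, and both genotypes were 12 to 16 weeks old on a C57BL/6 background. The 4 libraries were WT Dam-LaminB1, WT Dam only, KO Dam-LaminB1 and KO Dam only, each from the pooled DNA of 4 mice. All hepatocytes were cultured, transduced with lentivirus for 24 h and harvested 60 h after transduction, in both genotypes.

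In DamID, a bacterial methylase fused to LaminB1 marks GATC sites that touch the nuclear lamina, and the ratio to unfused Dam defines lamina-associated domains (LADs). A stretch that is LAD only in WT or only in KO and at least 10 kb long is a differential region (DR). A gene whose span touches a WT-only DR was named PI (periphery to interior), one that touches a KO-only DR was named IP, and one that touches both was named AMB. Of the rest, a gene in a LAD of both genotypes was named PP and any other gene II. There was 1 LAD list per genotype and no replicate, so no difference between genotypes could be tested and none of the values below has an error. The lists give positions without reads or signal, so the strength of a contact and the depth behind a border are unknown, and RNA was not analysed here.

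Bitter taste receptors are G protein-coupled receptors, most of them encoded by a single short coding exon, with which taste cells of the tongue and related chemosensory cells detect bitter and often toxic compounds. The receptors signal through gustducin, phospholipase C beta 2 and the cation channel Trpm5. The genes have multiplied by tandem duplication, so that most lie in arrays, and they are not genes of the hepatocyte's own function. LADs are in general poor in active genes.

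The sequences printed here are GATC sites at which LAD borders fell in or beside member genes, and they do not include every border of the DRs. Whether these sequences have a part in the differences between WT and KO was not tested. Each is printed as 60 bases of the plus strand of mm9 (the NCBIM37 assembly), 5′ to 3′, around the border, with every GATC in capitals. The sites are the end of the KO LAD inside Tas2r108 (chr6:40444256-40444315), the starts of the WT LAD (chr6:42350193-42350252) and of the KO LAD (chr6:42350230-42350289) at Tas2r143, the end of the WT LAD inside Tas2r126 (chr6:42384644-42384703), and both borders of the DR that holds Tas2r124 and Tas2r102 (chr6:132701414-132701473 and chr6:132716132-132716191).

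Tas2r108, KO LAD end: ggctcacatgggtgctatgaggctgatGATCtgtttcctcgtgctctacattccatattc
Tas2r143, WT LAD start: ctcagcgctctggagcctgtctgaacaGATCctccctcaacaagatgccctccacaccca
Tas2r143, KO LAD start: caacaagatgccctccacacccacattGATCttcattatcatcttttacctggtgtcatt
Tas2r126, WT LAD end: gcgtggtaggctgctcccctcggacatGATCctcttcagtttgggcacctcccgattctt
Tas2r124 and Tas2r102, KO LAD end before the DR: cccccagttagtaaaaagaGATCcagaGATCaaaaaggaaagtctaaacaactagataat
Tas2r124 and Tas2r102, KO LAD start after the DR: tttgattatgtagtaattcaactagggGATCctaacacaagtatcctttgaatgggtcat

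In each of these 6 stretches the border fell inside a GATC. The same held for 98.9% of WT borders and 99.5% of KO borders in the whole lists, so a border can be no finer than the spacing of GATC sites. That spacing was on average 414 bases over the genome and 379 bases over the member spans. A member span held between 0 and 14 GATC sites with a median of 3, and Tas2r118, Tas2r106 and Tas2r105 held none, so their calls rest on the fragments around them.

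Of the 35 bitter taste receptor genes, 33 were on chromosome 6, Tas2r134 was on chromosome 2 and Tas2r119 on chromosome 15. Spans ran from 882 to 9637 bases with a median of 957, and 19 genes were on the plus and 16 on the minus strand. The longest span was that of Tas2r129, which contains Tas2r131 on the opposite strand, so that their calls are not separate. GC content ran from 34.2% to 48.8% with a median of 38.5%, against a median of 45.6% over all protein-coding genes.

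All 35 bitter taste receptor genes overlapped a LAD in WT hepatocytes, where 30.4% of all protein-coding genes did. In KO hepatocytes 32 of the 35, or 91.4%, overlapped a LAD, against 41.7% of all genes. The whole span lay inside a LAD for 34 members in WT (97.1%; all genes 19.8%) and for 30 members in KO (85.7%; all genes 21.9%). Of the summed member span, 98.2% was in WT LADs and 92.8% in KO LADs, while over all protein-coding genes these shares were 38.3% and 42.3%. The members therefore had less LAD coverage in KO than in WT, and the genome's genes had more. With 98.2% of their span in WT LADs, the members could hardly gain, so the opposed directions alone do not set them apart. Most of the member bases lost were the 930 of Tas2r124 and the 1044 of Tas2r102, which lie in the same DR. With LADs of each genotype joined across gaps of up to 50 kb, the member shares were 100% in WT and 99.9% in KO.

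By class, 31 members were PP (88.6%; all genes 17.9%) and 4 were PI (11.4%; all genes 5.43%). Only a gene that overlaps a WT LAD can be PI or PP, so these shares do not compare like with like. All 35 members overlapped a WT LAD, with 4 of them PI. Of all genes 6805 did, with 1215 of them PI. The median span was 15.4 kb over all genes against 0.957 kb for the members, and a longer span touches a DR more easily. Whether the members were PI more or less often than such genes of like span was not tested. No member was IP, a class that held 17.1% of all genes, and none was II (56.6% of all genes) or AMB (2.96%). A KO-only DR lies outside WT LADs by definition, so the 34 members wholly in a WT LAD could be neither IP nor AMB. The absence of these classes is thus no separate result about the members. The 4 PI genes were Tas2r108, Tas2r126, Tas2r124 and Tas2r102, all on chromosome 6, and they came from only 3 DRs. With LADs of each genotype joined across gaps of up to 50 kb, all 35 members were PP, and where at least 50% of a span had to overlap, only Tas2r124 and Tas2r102 were PI. The members are not independent of each other, since 7 WT LADs and 9 KO LADs held all those in a LAD, and 24 members shared 1 WT LAD.

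Other chemosensory receptor families were placed beside these values. The vomeronasal families Vmn1r (203 genes) and Vmn2r (125 genes), which detect pheromones, were PP for 84.7% and 84.8% of members, and the olfactory receptors (Olfr, 1113 genes) for 82.7%. PI genes made up 5.42% of Vmn1r, 15.2% of Vmn2r and 9.61% of Olfr genes. A WT LAD overlapped 187 Vmn1r, 125 Vmn2r and 1046 Olfr genes, of which 11, 19 and 107 were PI. IP genes made up 4.43% of Vmn1r and 1.17% of Olfr genes, and no Vmn2r gene was IP. The median span was 0.93 kb for Vmn1r and 0.96 kb for Olfr genes, like the 0.957 kb of the bitter taste receptors, but 22.4 kb for Vmn2r genes, and the part of span length in the class shares was not tested. With genes of a family in shared LADs and 1 list per genotype, differences between the families were not tested.

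**Figure D1:**
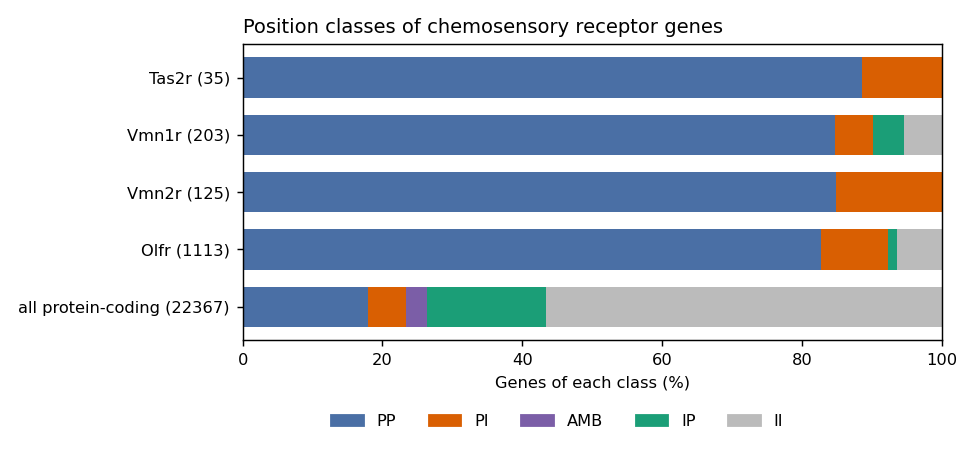
Share of genes in each position class (horizontal axis, %) for the bitter taste receptor genes, 3 other chemosensory receptor families and all protein-coding genes, with the number of genes in brackets. PP fills 88.6% of the Tas2r bar and between 82.7% and 84.8% of the other family bars, against 17.9% of all genes.

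With neighbouring members no more than 1 Mb apart, the genes on chromosome 6 formed 3 clusters, and Tas2r118 stood alone. The distal cluster ran from Tas2r130 to Tas2r140 over 1426 kb and held 24 members. In WT it lay entirely inside 1 LAD of 2312 kb, at chr6:131352125-133664467, which ranked 85 by length among 8107 WT LADs. In KO 99.0% of the cluster remained in LADs. Its 24 members were 22 PP and 2 PI genes. The cluster consists of a proximal array of 6 genes over 60.2 kb, from Tas2r130 to Tas2r114, which was wholly in LADs of both genotypes, and a distal array of 18 genes over 398.9 kb, from Tas2r120 to Tas2r140, of which 96.3% was in KO LADs. Tas2r105, the receptor for cycloheximide, is in the 6-gene array.

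Between the arrays lie 7 other protein-coding genes: Gm4736, Prb1, Prpmp5, Gm8882, Prh1, Prp2 and A630073D07Rik. Prb1, Prh1 and Prp2 belong to the proline-rich proteins of saliva. All 7 were PP and wholly covered by LADs in both genotypes, and so was 2700089E24Rik beyond Tas2r140. On the other side of the cluster, 5430401F13Rik was PI through a DR over 16.3% of its span.

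The KO lists broke the distal LAD into 5 LADs, or 2.16 per Mb, and left 97.9% of its bases in a LAD. Among the 117 WT LADs of at least 2 Mb, the median was 4.84 KO LADs per Mb and 93.5% of bases retained. Only 4 of these LADs were broken into fewer pieces per Mb and only 2 retained a higher share. The longest KO LAD in it, at chr6:131470705-132701443, was 1231 kb long and ranked 16 among 16076 KO LADs. It held 10 members, the whole proximal array and Tas2r120, Tas2r121, Tas2r122 and Tas2r115. The next KO LAD, at chr6:132716162-133418327, was 702 kb long and held the 12 members from Tas2r136 to Tas2r140.

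**Figure D2:**
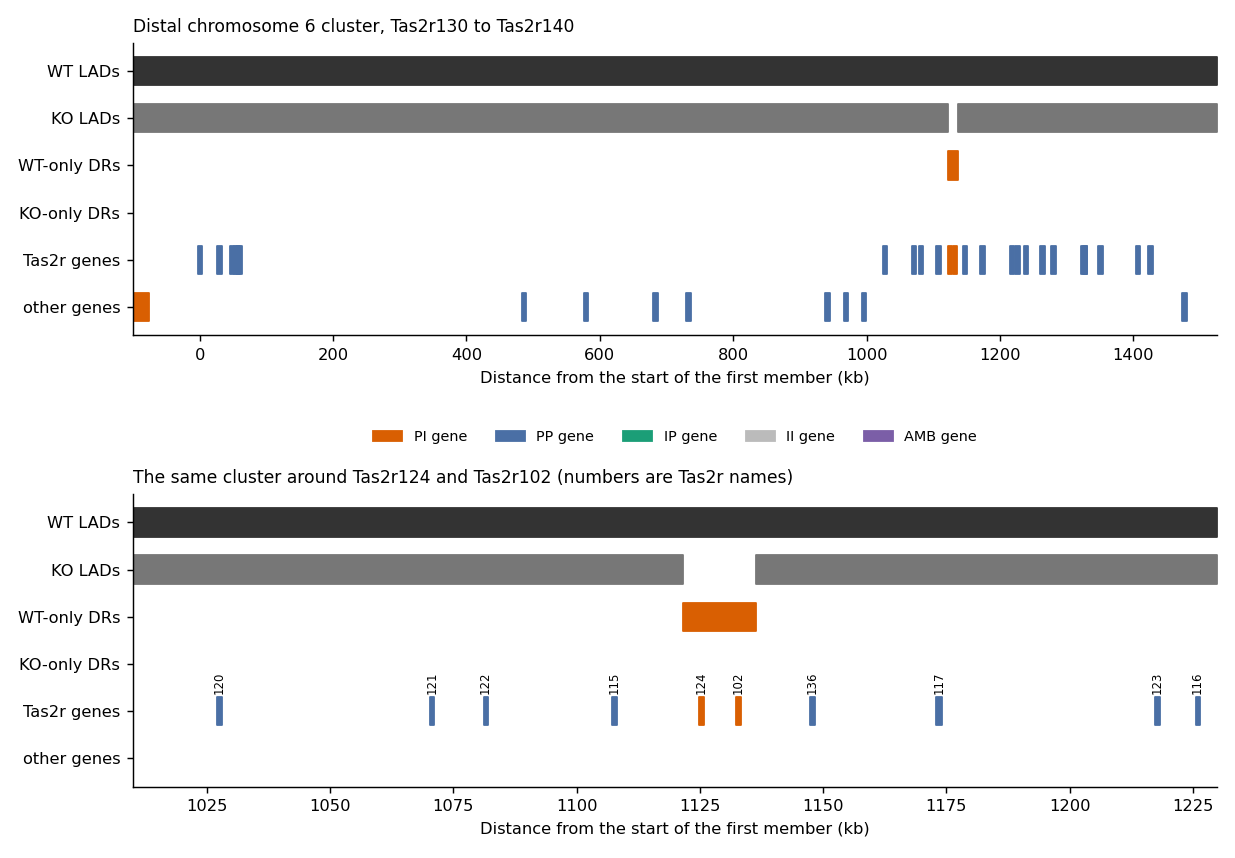
Map of the distal cluster, with the distance from the start of Tas2r130 in kb on the horizontal axis and LADs, DRs, member genes and other protein-coding genes as separate rows. Genes are coloured by class and drawn at a minimum width. The upper panel shows 1 unbroken WT LAD and 1 gap in the KO LADs, and the lower panel shows that the gap, 14.7 kb wide, covers Tas2r124 and Tas2r102 but not the members on either side.

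The gap between those KO LADs was the DR at chr6:132701444-132716161. It was 14.7 kb long and contained the whole of Tas2r124 and Tas2r102 and no other protein-coding gene. Tas2r124 (chr6:132704748-132705677, plus strand) had all 930 bases in a WT LAD and none in a KO LAD, and the nearest KO LAD was 3.30 kb away. Tas2r102 (chr6:132712149-132713192, plus strand) had all 1044 bases in a WT LAD and none in a KO LAD, with the nearest KO LAD 2.97 kb away. In WT these genes lay 959 kb and 951 kb from the nearest border of their LAD. Their neighbours, Tas2r115 before and Tas2r136 after the gap, were PP at 13.39 kb and 11.035 kb from the gap. The other 3 gaps that KO opened in the distal LAD were 10.997, 9.399 and 13.144 kb long and lay at least 109 kb from any member.

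The DR around Tas2r124 and Tas2r102 had a length common for its kind, since the median WT-only DR was 15.7 kb and 44.5% were shorter. It held 29 GATC sites, on average 508 bases apart, had a GC content of 34.9% and contained no unknown base. The transcripts of Tas2r124 and Tas2r102 were 80.9% identical, and each was the closest relative of the other. Among the pairs of closest relatives, Tas2r110 with Tas2r123 (86.3%) and Tas2r109 with Tas2r117 (81.1%) were more alike, and the median over all 595 pairs was 58.9%. The 300 bases around each annotated start, 250 before and 50 after, are printed because both whole genes left the LADs. They are plus strand mm9 at chr6:132704498-132704797 and chr6:132711899-132712198, and the annotated start is the start codon. Neither holds a GATC, which would stand in capitals.

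Tas2r124: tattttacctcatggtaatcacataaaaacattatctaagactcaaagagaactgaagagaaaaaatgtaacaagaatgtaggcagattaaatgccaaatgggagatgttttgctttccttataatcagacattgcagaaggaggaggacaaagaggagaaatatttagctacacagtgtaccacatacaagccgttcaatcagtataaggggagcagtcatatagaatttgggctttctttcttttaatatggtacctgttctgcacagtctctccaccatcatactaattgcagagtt
Tas2r102: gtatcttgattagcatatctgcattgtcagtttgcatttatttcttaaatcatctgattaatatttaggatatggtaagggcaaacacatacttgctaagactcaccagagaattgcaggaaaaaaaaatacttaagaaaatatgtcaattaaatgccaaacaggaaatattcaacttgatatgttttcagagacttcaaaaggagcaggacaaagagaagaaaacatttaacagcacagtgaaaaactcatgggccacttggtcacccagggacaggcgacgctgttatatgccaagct

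Reads from near-identical copies could be misplaced or lost in such arrays, so the share of 32-base stretches that occur once in the genome was counted. It was 100% for 24 of the 35 members, among them all 4 PI genes, and 98.7% over the DR of Tas2r124 and Tas2r102. The lowest shares were 47.8% for Tas2r117, 86.7% for Tas2r109 and 87.6% for Tas2r123, all PP. Over the whole distal WT LAD the share was 64.1%. The part of sequence copies in the LAD calls was not tested.

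The cluster from Tas2r137 to Tas2r138 held 3 members over 122 kb. It was wholly in 1 WT LAD, and 89.0% of it was in KO LADs. Tas2r137 was PP, 9.02 kb from the WT border and 2.05 kb from the KO border. The KO LAD that held it and part of Tas2r108 was 14.9 kb long and ranked 13580 by length among 16076 KO LADs. Tas2r108, a receptor for denatonium, was PI through its 3′ end. The KO LAD ended at base 695 of its 894 bases, and the last 199 bases (22.3%) lay in a WT-only DR at chr6:40444286-40457721, 13.4 kb long. Its start therefore stayed in a LAD in both genotypes. Tas2r138, the mouse counterpart of the human receptor for phenylthiocarbamide, was PP, 130 kb from the WT border and 19.4 kb from the KO border.

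Inside this cluster Prss37, Olfr461, Olfr460 and Clec5a, a lectin of myeloid cells, were PP with full coverage in both genotypes. Ssbp1, a mitochondrial DNA-binding protein gene just before Tas2r137, was II. It had no base in a WT LAD or a DR, but 23.0% of its span was in a KO LAD. Mgam, which encodes intestinal maltase-glucoamylase and follows Tas2r138, was PI with 15.2% of its span in WT-only DRs.

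The cluster from Tas2r139 to Tas2r126 differed from the others in that its members stood in separate LADs around an internal stretch. It held 5 members over 294.5 kb, of which 44.9% was in WT LADs and 49.7% in KO LADs. Tas2r139 and Tas2r144 were PP and shared a WT LAD, with Tas2r144 22.353 kb from its border in WT and 18.996 kb in KO. The 7 protein-coding genes between Tas2r144 and Tas2r143 had no base in a WT LAD. Of these, Casp2, Clcn1 and Fam131b were IP, with 58.1%, 33.4% and 100% of their spans in KO-only DRs, and Gstk1, Tmem139, Zyx and Epha1 were II. Casp2 encodes a caspase, Clcn1 a chloride channel of skeletal muscle, Zyx a focal adhesion protein and Epha1 an ephrin receptor. The KO-only DRs in this cluster lay over genes that are not bitter taste receptors. A KO-only DR cannot lie on a base of a WT LAD, and every member here except Tas2r126 was wholly in one.

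Tas2r143, Tas2r135 and Tas2r126 sat in a WT LAD of 34.5 kb at chr6:42350223-42384673, the shortest of the 7 that held members, and only 32.1% of it was in a KO LAD. The KO LAD left there was 11.1 kb long. Tas2r143 was PP. The WT LAD began 14 bases before it and the KO LAD 23 bases inside it, at GATC sites 37 bases apart, so that 97.4% of the gene was in a KO LAD. Tas2r135 was PP and wholly covered in both genotypes, 5.21 kb from a border in WT and 4.80 kb in KO. Tas2r126 was PI through its 5′ end. Its first 140 bases (15.1%) were in the WT LAD and in a DR of 23.3 kb, and the other bases were in no LAD in WT. In KO none of its bases was in a LAD and the nearest KO LAD was 3.88 kb away. Tas2r126 was the only member not wholly in a WT LAD, and the share of 32-base stretches that occur once was 92.5% over its DR.

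**Figure D3:**
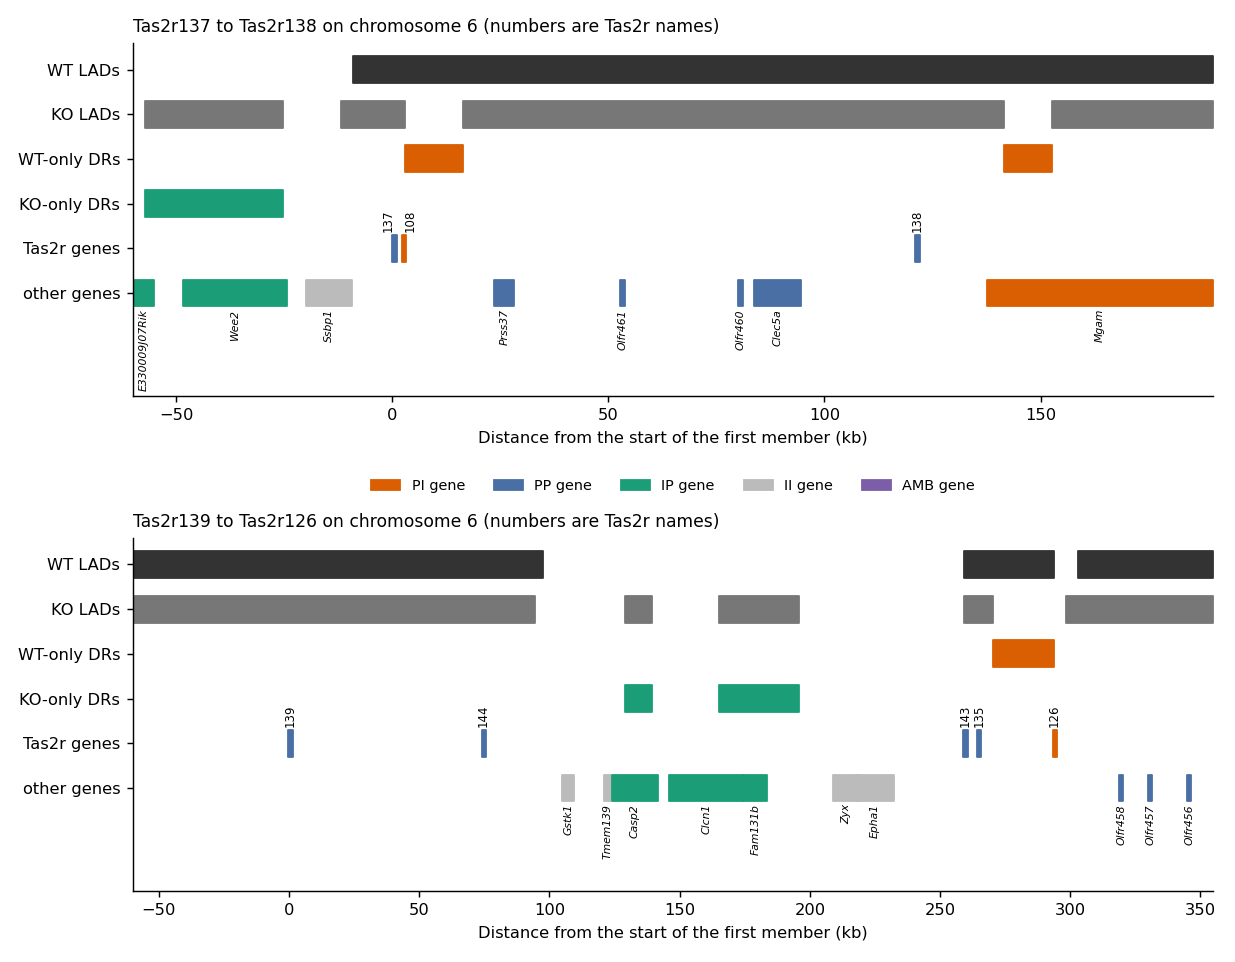
Maps of the clusters from Tas2r137 to Tas2r138 and from Tas2r139 to Tas2r126, with the distance from the start of the first member in kb on the horizontal axis. The WT-only DRs touch the end of Tas2r108 and the start of Tas2r126, and the KO-only DRs inside the lower cluster cover Casp2, Clcn1 and Fam131b between the members.

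The 3 members outside clusters were all PP with full coverage in both genotypes. Tas2r134 lay in a WT LAD of 383 kb of which 97.6% was in KO LADs, 186 kb from the border in WT and 135 kb in KO. Tas2r119 lay in a WT LAD of 618 kb of which 90.1% was in KO LADs, and its distance to the border was 57.9 kb in WT and 14.6 kb in KO. Tas2r118 lay near the edge of a WT LAD of 104 kb, 6.78 kb from the border. In KO it lay in a LAD of 577 kb and 66.5 kb from the border.

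Among the 30 members wholly in a LAD of both genotypes, the distance to the nearest border fell from a median of 668 kb in WT to 97.7 kb in KO. It was shorter in KO for 29 of the 30 members, and Tas2r118 was the exception. For most members this direction was fixed, since a KO LAD wholly inside a WT LAD can only leave the distance equal or shorter. This held for the KO LADs of the members in the distal WT LAD. It also held for those of Tas2r119, Tas2r138, Tas2r139, Tas2r144 and Tas2r135. How often it held over all genes was not counted, so the count of 29 does not set the members apart. Over the 3512 protein-coding genes wholly in a LAD of both, 69.2% were nearer to a border in KO, with medians of 142 kb and 65.0 kb. The KO list held 16076 LADs against 8107 in WT and covered a like share of the chromosomes, 56.1% against 55.4%, so its LADs were shorter on average. The KO libraries were also sequenced less deeply according to the study, and the part of depth in the number of LADs cannot be told apart from genotype. Of the 30 members, 22 were in the distal WT LAD, where a single KO gap at Tas2r124 and Tas2r102 set the nearest border for those of the distal array. For the 24 members of that LAD, the WT distance ran from 228 to 1057 kb with a median of 812 kb, and for the 22 wholly in a KO LAD the KO distance ran from 11.035 to 288.673 kb with a median of 133 kb. For the members outside it, the medians were 16.9 kb in WT (10 genes) and 19.2 kb in KO (8 genes). These medians are not over the same genes. The WT set also held Tas2r108 (11.4 kb) and Tas2r143 (0.014 kb), which were not wholly in a KO LAD. Of the 8 genes in both sets, all but Tas2r118 were nearer to a border in KO.

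**Figure D4:**
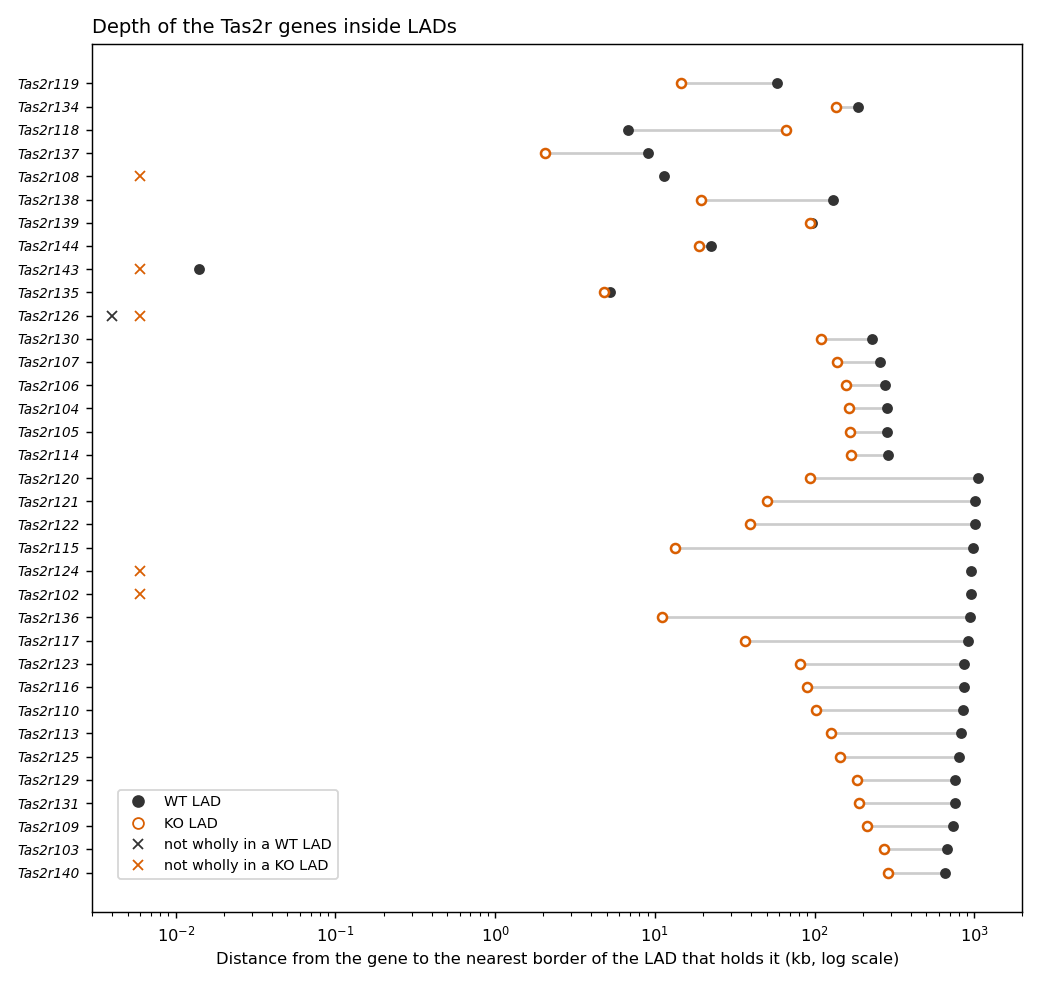
Distance from each bitter taste receptor gene to the nearest border of the LAD that holds it (horizontal axis, kb, log scale) in WT (filled) and KO (open), in chromosome order from chromosome 15 through 2 to 6. Crosses, set at the left edge, mark genes not wholly in a LAD. The KO point lies left of the WT point for 29 of 30 genes with both, and Tas2r118 lies the other way.

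The 7 WT LADs that held members covered 4.59 Mb, of which 95.1% was also in KO LADs. Without the distal LAD the other 6 covered 2.27 Mb with 92.3% retained. Among the 7 the share ran from 32.1% for the LAD of Tas2r143 to 97.9% for the distal LAD. Over all WT LADs the pooled share was 87.1%, and over those that hold protein-coding genes it was 89.1%. Over the 117 WT LADs of at least 2 Mb, the distal LAD among them, it was 92.9%. The part of LAD length in these shares was not tested. For the WT LADs that hold Vmn1r, Vmn2r and Olfr genes the pooled share was 93.5%, 94.2% and 90.6%.

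The genes through which bitter and sweet receptors signal, with related taste genes, were taken as a list of 18, of which 17 were found in the annotation and Calhm3 was not matched. Of the 17, 12 were II (70.6%; all genes 56.6%), 3 were IP (17.6%; all genes 17.1%), 2 were PP (11.8%; all genes 17.9%) and none was PI (all genes 5.43%). A WT LAD overlapped 2 of them (11.8%; all genes 30.4%) and a KO LAD 5 (29.4%; all genes 41.7%). The sweet and umami receptor genes Tas1r1, Tas1r2 and Tas1r3 were II, between 404 and 2583 kb from the nearest WT LAD. The nearest KO LAD was closer to each, at 279, 466 and 45.6 kb. Also II were Gnb3 and Gng13, which encode subunits of the taste G protein, the channel genes Trpm5, Trpm4 and Calhm1, Pou2f3, the transcription factor of sweet, umami and bitter taste cells, and Rtp3, Rtp4 and Reep2, which belong to families of receptor-trafficking proteins.

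The IP genes were Plcb2, the phospholipase of the taste cascade, with 84.4% of its span in a KO-only DR, Itpr3, the calcium release channel downstream of it, with 15.6%, and Reep1, with 17.9%. Gnat3, which encodes gustducin, was PP, and WT LADs covered 31.8% and KO LADs 48.2% of it. Rgs21, a regulator of G protein signalling in taste cells, was PP, covered for 100% in WT and 87.4% in KO.

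Tm7sf2 was II on chromosome 19, 1629 kb from the nearest WT LAD and 907 kb from the nearest KO LAD. Its position does not check the deletion. Of 8 hepatocyte marker genes, 7 were II (87.5%; all genes 56.6%), namely Alb, Ttr, Apoa1, Apob, Serpina1a, Tat and Hnf4a. Cps1, an enzyme of the urea cycle, was PI (12.5%; all genes 5.43%), with a WT-only DR over 9.38% of the gene.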

How the data were processed

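The deposited files were LAD and DR lists of WT and KO primary hepatocytes, as region starts and ends with no score. The authors mapped reads to mm9, computed log2(Dam-LaminB1/Dam) for each DpnI fragment, called LADs with DNAcopy and obtained DRs by subtracting the LAD lists. The submitters' processing notes name BWA and limma, with no version. The deposited DRs were checked: subtraction with a 10 kb minimum returned all 7787 WT-only and 8208 KO-only DRs. Members and gene lists were chosen with earlier results of these data known.

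Gene spans of the GENCODE annotation of NCBIM37 were overlapped with the lists (at least 1 base) in Python 3.11.15 with pysam 0.24.0, and the interval steps were tested on simulated lists. Every Tas2r gene, taste signalling gene, gene inside or next to a cluster, and Tm7sf2 was eligible to be named. Transcript identities were global alignments in Biopython 1.88. Alternatives changed the overlap, the part of the gene, the DR and LAD minimum, joined gaps and the cluster gap. Results were counts and covered bases without tests.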

Additional observations from a re-analysis of the deposited data

How the results depend on the processing

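Of 103 alternative values, 89 stayed within 1.5 times the reported one and 14 did not. Some of the 89 had little room to move. Shares near 100% cannot rise that far, and the IP and AMB counts of 0 were largely set by definition. The count of 89 is therefore no measure of stability. The number of PI bitter taste receptor genes, 4 as reported, was 2 (Tas2r124 and Tas2r102) where at least 50% of the span had to overlap, 11 with the 100 kb centred on the gene, 0 with LADs joined across gaps of up to 50 kb, 7 with LADs of at least 20 kb and 1 (Tas2r126) with DRs of at least 20 kb. All 4 PI calls thus rest on gaps under 50 kb. With LADs of at least 20 kb, Tas2r137, Tas2r143 and Tas2r135 changed from PP to PI. The 100 kb window also gave 1 IP gene (Tas2r118) and 2 AMB genes (Tas2r137 and Tas2r108). The number of II members, 0 as reported, was 1 with at least 50% of the span (Tas2r126), 1 with the start only (Tas2r143) and 2 with DRs of at least 20 kb (Tas2r124 and Tas2r102, then in no KO LAD and no DR). The share of the Tas2r139 to Tas2r126 cluster in KO LADs, 49.7% as reported, was 78.5% with LADs joined. Of the taste signalling genes, PI genes numbered 1 rather than 0 with LAD differences of any length, and PP genes, 2 as reported, numbered 1 with the start only and 0 with differences of any length. The annotation held no further Tas2r gene that is not protein-coding. No paired analysis was possible because each group had 1 library and no result came from a test.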

Other observations

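Windows from 250 bases before to 50 bases after the annotated start held a GATC in 14 of the 35 bitter taste receptor genes (40%), against 10325 of 22367 protein-coding genes (46.2%). The windows of the 4 PI genes Tas2r108, Tas2r126, Tas2r124 and Tas2r102 held none. GATC reads the same on both strands, and the letters say nothing about binding of any factor. The GC content of the 24 members in the distal WT LAD ran from 34.2% to 41.2% with a median of 37.5%, and that of the other 11 members from 40.2% to 48.8% with a median of 44.5%.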
